A study of Homo sapiens with 4 samples.

Results

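The genes described here are the chemokine receptors CXCR4, ACKR3 and CCR7 and the ligands that these receptors bind, CXCL12, CCL19 and CCL21. They are 6 of the 27685 gene IDs in the files. The set was chosen by its TPM difference between barasertib and DMSO in these same libraries, so the members' own differences are given as a description, with no test. The cells were NCC-IT-A3, a human line of embryonal carcinoma, the germ cell tumour whose cells resemble those of the early embryo. Cells were kept for 4 days in DMSO, the solvent, or in 100 nM barasertib, an inhibitor of the mitotic kinase Aurora B, and each condition has 2 libraries. Both conditions share this line and RPMI medium with serum, and the labels name no genetic change. Separate cultures are not stated for the libraries of a condition, and a p-value here reflects just the variation among these 4 libraries, which may be technical. Values are TPM, the abundance of a transcript per length and relative to the whole library, given as mean ± SD with n = 2 libraries per condition. Log2 changes are differences of mean log2(TPM + 1) with the moderated standard error (SE), which understates the change of low genes.

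Chemokines are small secreted proteins that steer cells through G protein-coupled receptors. CXCR4 signals through inhibitory G proteins when it binds CXCL12, and it guides primordial germ cells, blood stem cells and many tumour cells. ACKR3 binds CXCL12 too, but it recruits arrestins and removes the ligand from the surroundings rather than signalling through G proteins. CCR7 binds CCL19 and CCL21 and brings lymphocytes and dendritic cells to lymph nodes. CXCR4 also serves as a surface marker when pluripotent cells turn into definitive endoderm.

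The RefSeq table of promoters (build GRCh38.p14) held 3 of the 6 genes. The 250 bases before the start of these genes are shown, because CXCR4 and CXCL12 were both higher with barasertib while CCL19 was listed at 0 in each library. For CXCR4 the outermost of 3 starts in the table was taken (chr2:136118150-136118399, minus strand). The windows of CXCL12 (chr10:44385098-44385347) and CCL19 (chr9:34691277-34691526) are also on the minus strand. Capitals mark the GC box (GGGCGG), the NRF1 core (GCATGCGC) and the TATA element (TATAAA), each on either strand.
CXCR4: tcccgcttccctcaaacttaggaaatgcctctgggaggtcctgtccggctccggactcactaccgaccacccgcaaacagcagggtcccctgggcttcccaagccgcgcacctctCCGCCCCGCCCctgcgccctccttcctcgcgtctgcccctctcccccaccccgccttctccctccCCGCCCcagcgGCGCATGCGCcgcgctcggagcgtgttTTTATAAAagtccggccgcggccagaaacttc
CXCL12: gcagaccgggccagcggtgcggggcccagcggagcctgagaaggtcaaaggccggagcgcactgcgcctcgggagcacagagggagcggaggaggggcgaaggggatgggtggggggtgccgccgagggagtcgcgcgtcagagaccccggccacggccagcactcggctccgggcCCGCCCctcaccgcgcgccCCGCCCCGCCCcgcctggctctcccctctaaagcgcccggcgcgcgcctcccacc
CCL19: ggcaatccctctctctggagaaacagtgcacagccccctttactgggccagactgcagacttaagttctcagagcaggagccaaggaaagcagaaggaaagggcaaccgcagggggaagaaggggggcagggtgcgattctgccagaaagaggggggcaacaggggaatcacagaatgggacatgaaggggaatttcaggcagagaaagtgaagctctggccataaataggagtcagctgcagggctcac
The CXCR4 window held 3 GC boxes, of which 2 share a base, an NRF1 core and a TATA element that each match on both strands, so 2 overlapping matches for each. The CXCL12 window held 3 GC boxes, of which 2 share a base, and neither of the other elements. The CCL19 window held none of these. Among the 35116 RefSeq windows of the same length, 42.6% held a GC box, 10.7% a TATA element and 2.63% the NRF1 core. CpG dinucleotides numbered 24 in the CXCR4 window, 31 in that of CXCL12 and 2 in that of CCL19, and 76.3%, 89.1% and 14.7% of all windows held fewer. Of 4 further motifs searched on both strands, ACGTG (in 18.5% of all windows) and TGANTCA (6.57%) were in none of the 3 windows. GCGTG (32.2%) was once in that of CXCR4, and GGG and CC with any 5 bases between them (54.4%) had 5 matches, some overlapping, in that of CXCL12. These are matches of letters in this window and no measurement of binding. At the other CXCR4 starts the windows held 0 and 1 GC boxes, 0 NRF1 cores and 0 TATA elements. They held 12 and 8 CpG dinucleotides, and 51.5% and 43.7% of all windows held fewer. Which start these cells used was not measured.

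CXCR4, the signalling receptor for CXCL12, was the member with the highest receptor level after treatment. In the hg19 coordinates of the files it is gene ID 7852 on chromosome 2, from 136871919 to 136875725, on the minus strand. It was at 4.83 and 3.93 TPM in DMSO replicates 1 and 2 and at 21.0 and 23.6 TPM in barasertib replicates 1 and 2. The lower barasertib value was above the higher DMSO value, so the conditions did not overlap. The same held for 49.1% of all tested genes, and a further 19.7% were lower with barasertib without overlap. The mean was 22.3 ± 1.85 TPM after barasertib against 4.38 ± 0.641 TPM in DMSO, a ratio of 5.10 and a log2 change of 2.12 ± 0.12 (SE). CXCR4 stood above 22.8% and 19.9% of the tested genes in the DMSO libraries and above 51.9% and 54.9% in the barasertib libraries. In cell populations, more cells of a kind and more RNA per cell cannot be told apart.

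CCR7, the receptor for CCL19 and CCL21, started from a much lower level. The gene (ID 1236) lies on chromosome 17 from 38710022 to 38721736, on the minus strand. It was at 0.762 and 0.590 TPM in the DMSO libraries and at 7.27 and 5.34 TPM in the barasertib libraries. The conditions did not overlap, and the barasertib libraries differed from each other more than those of CXCR4 did in relation to their mean. CCR7 averaged 6.31 ± 1.37 TPM after barasertib against 0.676 ± 0.121 TPM in DMSO, a ratio of 9.33 and a log2 change of 2.11 ± 0.18 (SE). The mean read depth over the gene, the authors' deposited coverage, was 1.27 and 1.03 with DMSO and 11.7 and 8.37 with barasertib, so the DMSO level rests on few reads. CCR7 passed the minimum of 1 TPM on the mean of all libraries only through the barasertib libraries, and it is 1 of 233 among the 13938 tested genes with both DMSO libraries under 1 TPM. The minimum favours rises among such genes, and 127 of the 233 were called higher at the threshold given below, against 22.0% of all tested genes. A log2 change at such levels depends on the pseudocount, and it was 3.04 with a pseudocount of 0.1 and 0.99 with a pseudocount of 5.

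ACKR3, the atypical receptor that removes CXCL12, differed least among the receptors. It is gene ID 57007 on chromosome 2, from 237478380 to 237490994, on the plus strand. In the DMSO libraries it was at 3.90 and 4.72 TPM, and in the barasertib libraries at 8.01 and 6.15 TPM. The conditions did not overlap, but the gap between 4.72 and 6.15 TPM was smaller than the distance between the barasertib libraries. The means were 4.31 ± 0.586 and 7.08 ± 1.31 TPM, a ratio of 1.64 and a log2 change of 0.60 ± 0.16 (SE). ACKR3 was among the called genes in TPM, but not after median-of-ratios scaling (log2 change 0.49) or quantile normalisation (0.43). It was also not among them without barasertib replicate 1 (0.43) or without DMSO replicate 1 (0.49). With the log2 change unchanged at 0.60, ACKR3 was not among them either without the 1 TPM minimum or without the mean-variance trend of the fit.

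Among the ligands, CXCL12, which binds CXCR4 and ACKR3, was the most abundant of all members in each library. It is gene ID 6387 on chromosome 10, from 44865601 to 44880545, on the minus strand. The DMSO libraries held 38.1 and 35.5 TPM and the barasertib libraries 53.8 and 49.7 TPM, with no overlap between the conditions. The means were 36.8 ± 1.83 and 51.7 ± 2.90 TPM, a ratio of 1.41 and a log2 change of 0.48 ± 0.07 (SE). CCL19 (ID 6363, chromosome 9 from 34689567 to 34691274) and CCL21 (ID 6366, chromosome 9 from 34709002 to 34710164), the ligands of CCR7, were listed at 0 TPM in all 4 libraries. They did not enter the fit. The files hold no counts, so no upper limit can be set on these messages.

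**Figure D1:**
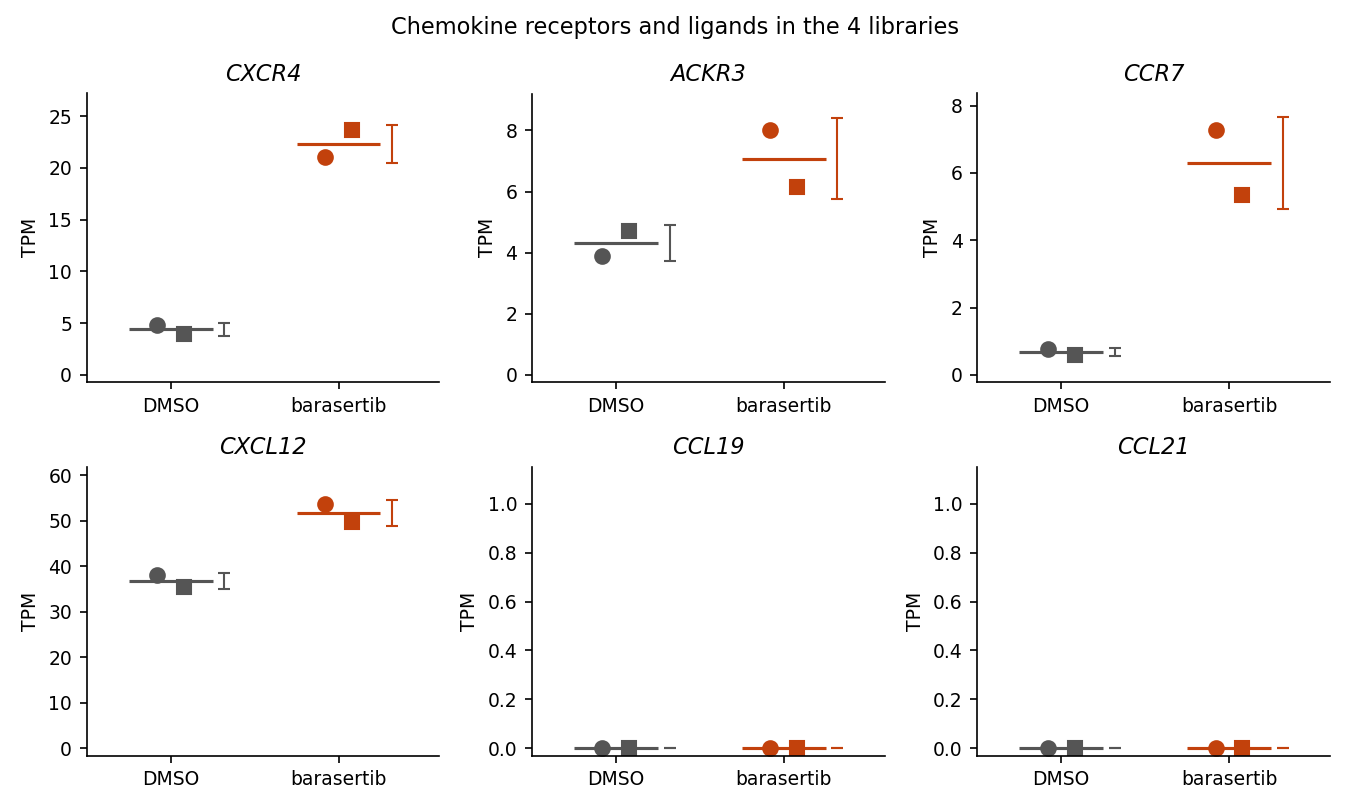
TPM of each member (vertical axis, a separate linear scale per gene) in DMSO and barasertib libraries. Circles are replicate 1, squares replicate 2, horizontal lines the means and the bars beside them mean ± SD (n = 2). CXCR4, CCR7, ACKR3 and CXCL12 do not overlap between conditions, and CCL19 and CCL21 lie at 0. Of all tested genes, 49.1% were higher and 19.7% lower with barasertib without overlap.

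The order of the members differed between the conditions. With DMSO, CXCL12 was highest, CXCR4 (3.93 to 4.83 TPM) and ACKR3 (3.90 to 4.72 TPM) overlapped, and CCR7 was below both. With barasertib, CXCR4 stood alone in the second place, and ACKR3 (6.15 to 8.01 TPM) overlapped with CCR7 (5.34 to 7.27 TPM). Summed over the receptors, expression was 9.49 and 9.24 TPM with DMSO and 36.3 and 35.1 TPM with barasertib. CXCR4 supplied 50.9% and 42.5% of that sum with DMSO and 57.9% and 67.3% with barasertib. The share of ACKR3 was 41.0% and 51.1% with DMSO and 22.1% and 17.5% with barasertib. CCR7 supplied 8.03% and 6.39% with DMSO and 20.0% and 15.2% with barasertib.

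Ratios within a library do not depend on its scaling. There were 7.89 and 9.05 CXCL12 transcripts per CXCR4 transcript in TPM with DMSO, and 2.56 and 2.10 with barasertib. Per ACKR3 transcript, CXCL12 was at 9.79 and 7.52 with DMSO and at 6.72 and 8.08 with barasertib, so this ratio overlapped between the conditions. CXCR4 was at 1.24 and 0.831 times the level of ACKR3 with DMSO and at 2.63 and 3.84 times with barasertib. The signalling receptor was thus higher in relation to both its ligand and the atypical receptor in both treated libraries, while the ligand and the atypical receptor kept overlapping proportions.

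**Figure D2:**
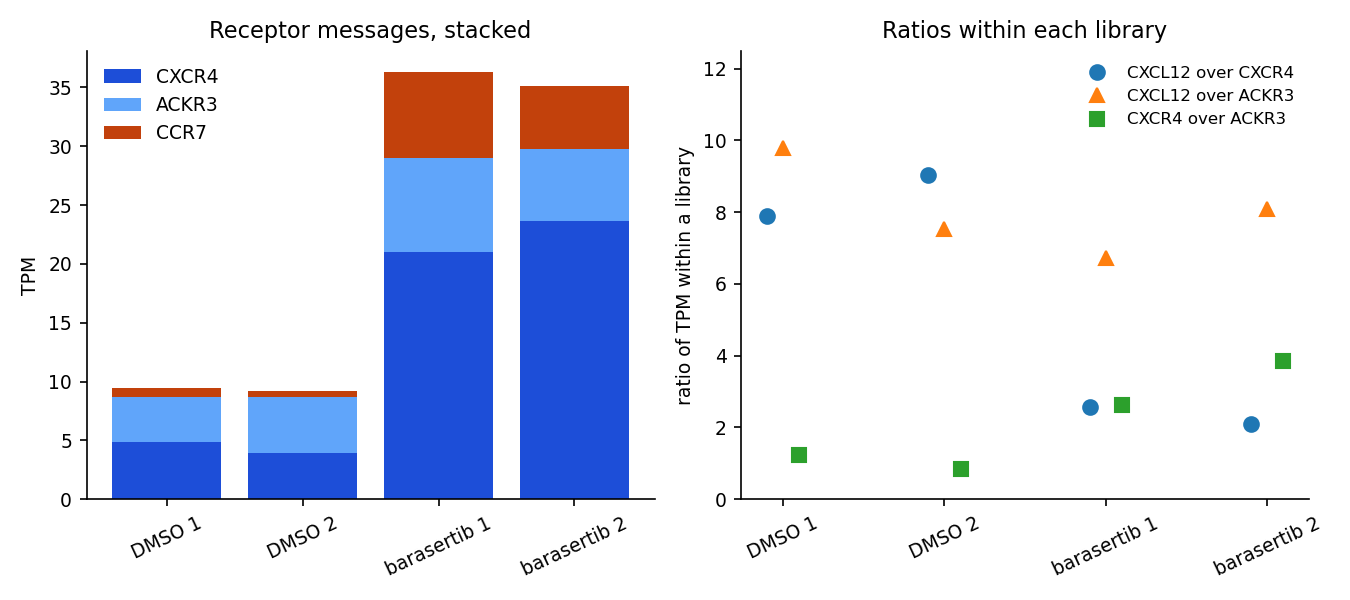
Left, TPM of the receptors stacked per library on a linear axis from 0. Right, ratios of TPM within each library, with the DMSO libraries at the left and the barasertib libraries at the right. The CXCL12 to CXCR4 ratio lies at 7.89 and 9.05 with DMSO and at 2.56 and 2.10 with barasertib, and the CXCL12 to ACKR3 ratio overlaps.

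All 4 members that entered the limma fit of 13938 genes were among those called higher after treatment (threshold 0.05 on the Benjamini-Hochberg adjusted value), as were 22.0% of all tested genes, and the members were chosen with this contrast known. In all, 29.5% of the tested genes were called, 7.44% as lower. Without overlap between conditions, 49.1% of the tested genes were higher with barasertib and 19.7% lower. Ordered by log2 change from the highest, CXCR4 was number 14, CCR7 15, ACKR3 1094 and CXCL12 1669. All tested genes had a median log2 change of 0.11 in TPM and -0.01 after either median-of-ratios scaling or quantile normalisation, which gave 1528 higher and 1891 lower genes and 1649 higher and 1590 lower genes against 3071 and 1037 in TPM. Relative to the median in TPM, the changes were 2.01 for CXCR4, 2.0 for CCR7, 0.49 for ACKR3 and 0.37 for CXCL12.

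**Figure D3:**
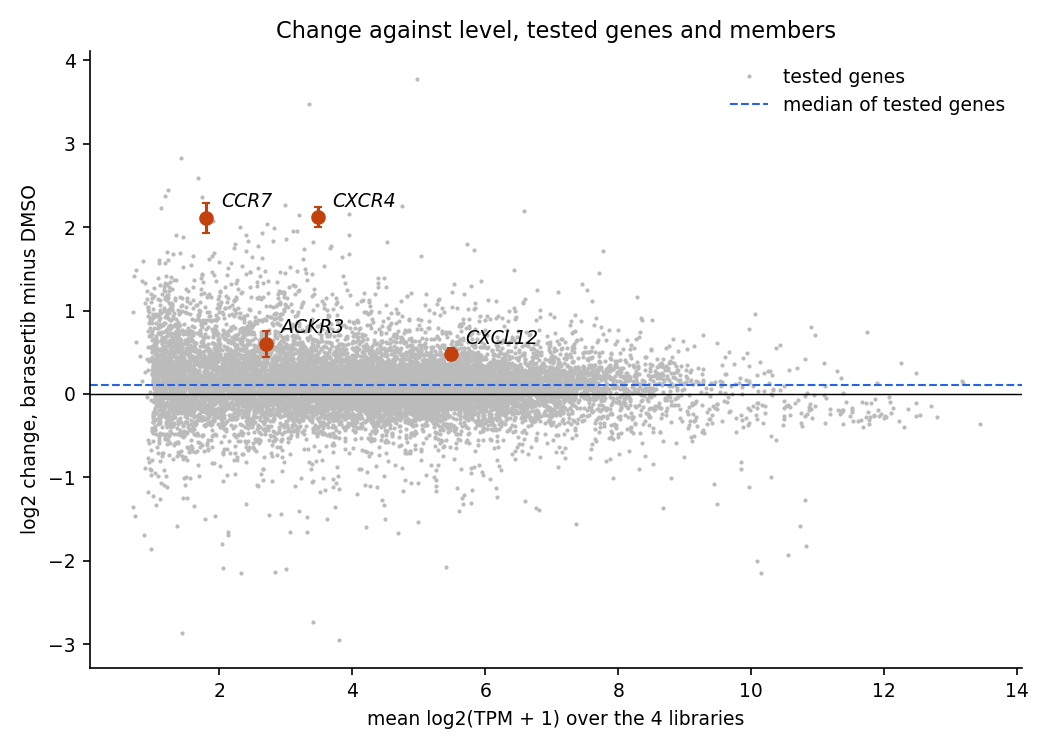
Log2 change (barasertib minus DMSO) against the mean log2(TPM + 1) of the 4 libraries for the 13938 tested genes (grey) and the 4 tested members (orange, with SE). CXCR4 and CCR7 lie at 2.12 and 2.11, and ACKR3 and CXCL12 at 0.60 and 0.48, above the median of 0.11 (dashed).

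The rest of the chemokine system was nearly silent. Of 60 other chemokine receptors and ligands matched in the files, 33 were listed at 0 in each library and 52 stayed under 1 TPM, and 6 entered the fit. Among the receptors, 0 of 2 tested passed (limma, 0 also at an unadjusted p under 0.05). The one with the smaller p was CCR8, a chemokine receptor of T cells, at 1.55 ± 0.690 TPM after barasertib against 0.718 ± 0.242 TPM in DMSO (limma adjusted p = 0.155). CCR4, named after its values were seen, averaged under 1 TPM and was not tested. It was at 0.263 and 0 TPM with DMSO and at 1.55 and 1.74 TPM with barasertib. Without the filter 1 other receptor was called higher and 0 lower. Among 4 ligands tested, CXCL3, a neutrophil attractant, rose from 0.678 ± 0.289 to 1.96 ± 0.245 TPM (limma adjusted p = 0.0304). Leaving out DMSO replicate 1 (0.0942) or either barasertib library (0.141 and 0.0921 for replicates 1 and 2) ended that call. CXCL3 has close paralogs that may share its reads, and it passed the 1 TPM minimum only through the barasertib libraries. CCL26, named after its values were seen, was the one gene of the 60 to reach 5 TPM, with 8.65 and 13.6 TPM after barasertib against 7.91 and 6.53 TPM in DMSO (limma adjusted p = 0.0977).

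Among genes whose products bind or process the ligands of these receptors, 13 of 19 tested rose and 0 fell. Of all tested genes 22.0% rose, and the difference from this list was not tested. The list had a median log2 change of 0.37 against 0.11 for all tested genes, and 8 rose under all 3 scalings. Other heparan sulfate genes of the list, named after their values were seen, did not move as a group. HS2ST1 rose in TPM (log2 change 0.31), while GPC3 (-0.03), EXT1 (0.02) and NDST1 (-0.22) were not past the threshold. The syndecans of the list, SDC1, SDC2 and SDC4, are cell surface proteoglycans whose heparan sulfate holds chemokines, and each of them rose. SDC4 went from 25.5 ± 2.02 to 54.9 ± 0.0785 TPM (limma adjusted p = 0.000617), SDC1 from 2.38 ± 0.0798 to 5.44 ± 0.00228 TPM (0.00394) and SDC2 from 8.02 ± 0.942 to 15.8 ± 0.277 TPM (0.00253). DPP4, the surface protease that inactivates CXCL12 by cutting its amino end, rose from 4.71 ± 0.650 to 10.8 ± 1.88 TPM (limma adjusted p = 0.00525). These 4 genes kept the call in each setting that tested them. After median-of-ratios scaling 9 rose and 3 fell, and without barasertib replicate 1 the list held 8 that rose.

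Of the G proteins, arrestins and RGS regulators that act below the receptors, 10 of 29 tested genes rose and 1 fell, at a median of 0.15. This list was not tested against the 22.0% of all tested genes that rose and the 7.44% that fell. The beta and gamma subunits GNG11, GNG2 and GNB4 and the arrestin ARRB1 had the largest rises. GNG11 rose from 4.56 ± 0.153 to 10.1 ± 0.544 TPM (limma adjusted p = 0.00185) and GNG2 from 2.78 ± 0.0779 to 6.05 ± 0.693 TPM (0.00555). GNB4 rose from 10.7 ± 0.90 to 16.7 ± 0.196 TPM (limma adjusted p = 0.00600). ARRB1, which binds ACKR3 and CXCR4 after activation, rose from 70.6 ± 1.23 to 105 ± 3.93 TPM (limma adjusted p = 0.00159). RGS3, which shortens G protein signals and was named after its values were seen, fell from 11.4 ± 0.547 to 8.40 ± 0.931 TPM (limma adjusted p = 0.0348). Without barasertib replicate 1, or after median-of-ratios scaling, 6 genes of this list rose. RGS3 kept its call under all 3 scalings, but no gene of the list (0) fell without the filter, without the mean-variance trend, or when either barasertib library or DMSO replicate 1 was left out.

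In the receptor trafficking list 6 of 17 tested genes rose and 0 fell at a median of 0.17, with RAB7A, a GTPase of late endosomes, from 252 ± 8.19 to 322 ± 2.03 TPM (limma adjusted p = 0.00323). Only 1 trafficking gene rose without barasertib replicate 1 and after median-of-ratios scaling, and 3, 3 and 2 without barasertib replicate 2, DMSO replicate 1 and DMSO replicate 2. Of 25 migration genes 10 rose and 0 fell at a median of 0.18, and 4 under all 3 scalings. Neither list was tested against the 22.0% of all tested genes that rose and the 7.44% that fell. PXN (paxillin, an adaptor of focal adhesions) rose from 41.2 ± 0.322 to 61.0 ± 2.58 TPM (limma adjusted p = 0.00222), PAK1, a kinase of the cytoskeleton, from 108 ± 3.67 to 156 ± 3.23 TPM (0.00159), and TIAM1, an activator of RAC1, from 23.3 ± 0.611 to 33.3 ± 0.759 TPM (0.00417). Without the libraries in turn 5, 5, 6 and 7 migration genes rose. The leukocyte-specific activators PIK3CG, VAV1 and DOCK2, named after their values were seen, were near or at 0. PIK3CG reached 0.0141 TPM in barasertib replicate 1 and was at 0 in the other libraries, and VAV1 and DOCK2 were listed at 0 in all 4. They do not stand for the whole list, as PIK3CD and RAC2, also named after their values were seen, were expressed. PIK3CD rose from 11.3 ± 0.602 to 15.2 ± 1.07 TPM (limma adjusted p = 0.0229), a call lost after median-of-ratios scaling and quantile normalisation. RAC2 went from 0.868 ± 0.207 to 1.22 ± 0.268 TPM (limma adjusted p = 0.403).

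**Figure D4:**
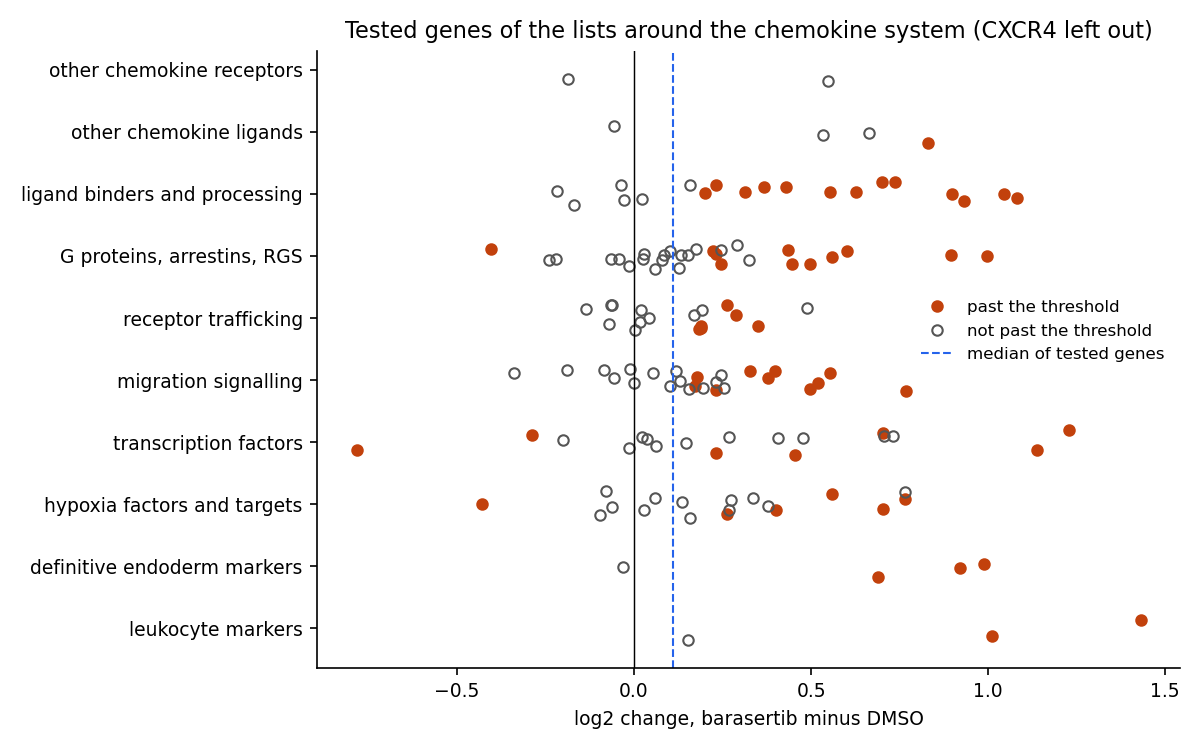
Log2 change (barasertib minus DMSO) of the tested genes of each list, 1 point per gene, filled where limma's adjusted p is under 0.05; vertical scatter has no meaning. Ligand binders and processing genes have 13 of 19 past the threshold, all higher, and 6 of the 60 other chemokine system genes were tested.

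Transcription factors reported to act at CXCR4 or CCR7 changed in both directions, with 5 of 18 tested genes higher and 2 lower at a median of 0.25. Neither this list nor the hypoxia list below was tested against the shares of all tested genes, 22.0% higher and 7.44% lower. JUN and FOS, which form AP-1, rose from 25.7 ± 2.21 to 57.7 ± 0.720 TPM (limma adjusted p = 0.000588) and from 1.67 ± 0.596 to 5.20 ± 0.917 TPM (0.00844). The FOS call was lost without barasertib replicate 1 (0.0660). RUNX1 rose from 2.70 ± 0.0303 to 5.02 ± 0.189 TPM (limma adjusted p = 0.00953, and 0.0512 and 0.0568 without barasertib replicate 1 or 2). TFAP2A fell from 306 ± 0.0447 to 177 ± 12.1 TPM (limma adjusted p = 0.000706). SP1, which binds GC boxes and was named after its values were seen, was the other factor that fell. It went from 30.2 ± 0.362 to 24.6 ± 0.651 TPM (limma adjusted p = 0.0226) and was called lower under all 3 scalings. NRF1, whose core is in the window of the outermost CXCR4 start, was named after its values were seen and was at 15.4 ± 1.11 and 13.3 ± 1.74 TPM (limma adjusted p = 0.217). Without the libraries in turn 2, 3, 6 and 4 of these factors rose. Of 18 hypoxia factors and targets 5 rose and 1 fell at a median of 0.27. VHL, which marks HIF proteins for degradation, fell from 79.3 ± 2.01 to 58.6 ± 0.637 TPM (limma adjusted p = 0.00335). ALDOC, a glycolytic enzyme, rose from 160 ± 22.1 to 234.6 ± 7.72 TPM (limma adjusted p = 0.00844), a call lost without barasertib replicate 1 (0.0664) or 2 (0.05). Without each library in turn 1, 1, 7 and 3 hypoxia genes rose, and 1 under all 3 scalings.

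Definitive endoderm markers other than CXCR4 were low. Of 14 such genes 4 were tested and 3 rose, and 9 stayed under 1 TPM in each library. HHEX rose from 3.24 ± 0.484 to 7.01 ± 0.524 TPM (limma adjusted p = 0.00560). EOMES rose from 0.536 ± 0.0834 to 2.05 ± 0.216 TPM (limma adjusted p = 0.0122) and MIXL1 from 1.64 ± 0.116 to 3.26 ± 0.159 TPM (0.0182), and both calls were lost without barasertib replicate 1 (0.0588 and 0.0732) or 2 (0.0749 and 0.0867). Leaving out DMSO replicate 2 also ended the MIXL1 call (0.0582). MIXL1 was also not called after quantile normalisation (log2 change 0.48). EOMES passed the 1 TPM minimum only through the barasertib libraries. The highest value in any library was 0.0464 TPM for SOX17 and 0.335 TPM for FOXA2, the defining endoderm factors, and CER1 was listed at 0. Summed without CXCR4, the list was at 9.79 and 9.25 TPM with DMSO and at 17.2 and 16.6 TPM with barasertib. Leukocyte markers, relevant because CCR7 and CXCR4 are leukocyte receptors, summed to 4.53 and 5.81 TPM over 20 genes with DMSO and to 16.2 and 15.7 TPM with barasertib. PTPRC (CD45), CD3D, CD3E, CD3G, CD2, MS4A1 and TYROBP were listed at 0 in each library. ITGAX and LCP1, named after their values were seen, averaged under 1 TPM and were not tested. ITGAX went from 0.290 ± 0.103 to 1.32 ± 0.180 TPM and LCP1 from 0.292 ± 0.258 to 1.37 ± 0.157 TPM. Without the filter 7 leukocyte markers were called higher and 0 lower. Of 3 leukocyte markers tested 2 rose, CD52 from 1.36 ± 0.698 to 5.22 ± 0.414 TPM (limma adjusted p = 0.00705) and FCER1G from 0.848 ± 0.416 to 2.69 ± 0.456 TPM (0.0203), and neither kept the call without barasertib replicate 1 or 2. FCER1G, whose mean with DMSO was under 1 TPM, also lost it after quantile normalisation (limma adjusted p = 0.0516). The part of these marker genes in the CXCR4 and CCR7 values was not tested. The line's own markers were present, with POU5F1 at 3616 ± 130 TPM and SOX2 at 451 ± 6.96 TPM with DMSO, and AURKB, which encodes the target of the drug, was higher with barasertib at 105.5 ± 0.708 against 66.5 ± 2.22 TPM.

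Of the tested genes described here beside the receptors on the chromosome, IGFBP4 near CCR7 had the largest change. At higher coordinates than CXCR4, the nearest tested gene was SPOPL, 2383625 bases away, at 8.05 ± 0.197 TPM in DMSO and 7.57 ± 0.333 TPM after barasertib (limma adjusted p = 0.567). Beside ACKR3, DRC11 was at 4.72 ± 0.0656 and 4.36 ± 0.297 TPM (limma adjusted p = 0.579), and COPS8 at 56.2 ± 1.81 and 66.7 ± 3.52 TPM (0.0350, and 0.247 after median-of-ratios scaling). Without each library in turn the COPS8 call was lost. Beside CCR7, IGFBP4, which binds insulin-like growth factors and lies 96040 bases away, rose from 6.96 ± 0.828 to 16.2 ± 0.430 TPM (limma adjusted p = 0.00143), and SMARCE1, 62240 bases away on the other side, was at 109.99 ± 0.0263 and 123 ± 0.971 TPM (0.0442, and 0.689 after median-of-ratios scaling). The SMARCE1 call was also lost without any 1 library. Neighbours and windows were taken from tested genes with at most 1 row in any library. With any part of their span within 1 Mb of the start of CXCR4, 1 of 7 such genes was higher and 3 lower. For ACKR3 2 and 0 of 4 were, and for CCR7 7 and 2 of 29, in a window chosen after the data were seen. The windows were not tested against the shares of all tested genes, 22.0% higher and 7.44% lower.

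The genes whose profile over the 4 libraries was nearest were found by the Euclidean distance of log2(TPM + 1) values, each centred on the gene's own mean. For CXCR4 these were THBS2, FMO5 and SSTR1, at distances of 0.171, 0.225 and 0.227. THBS2, a matrix glycoprotein, was at 6.53 and 6.12 TPM with DMSO and at 31.7 and 31.5 TPM with barasertib, and SSTR1, a somatostatin receptor, at 2.60 and 2.50 and at 13.1 and 13.1 TPM. For CCR7 the nearest were EGR1 (0.142), NRARP (0.183) and H3C14 (0.199), the last a histone gene with near-identical copies whose reads may be split among them. EGR1, an immediate early transcription factor, was at 3.72 and 2.99 TPM with DMSO and at 19.7 and 16.9 TPM with barasertib. For ACKR3 the nearest were EEF1AKMT1 (0.0225), LRG1 (0.0568) and RNF182 (0.0603), each low, and EEF1AKMT1 was at 2.77 and 3.50 TPM with DMSO and at 5.96 and 4.52 TPM with barasertib. With 4 libraries many genes lie close to any profile.

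**Figure D5:**
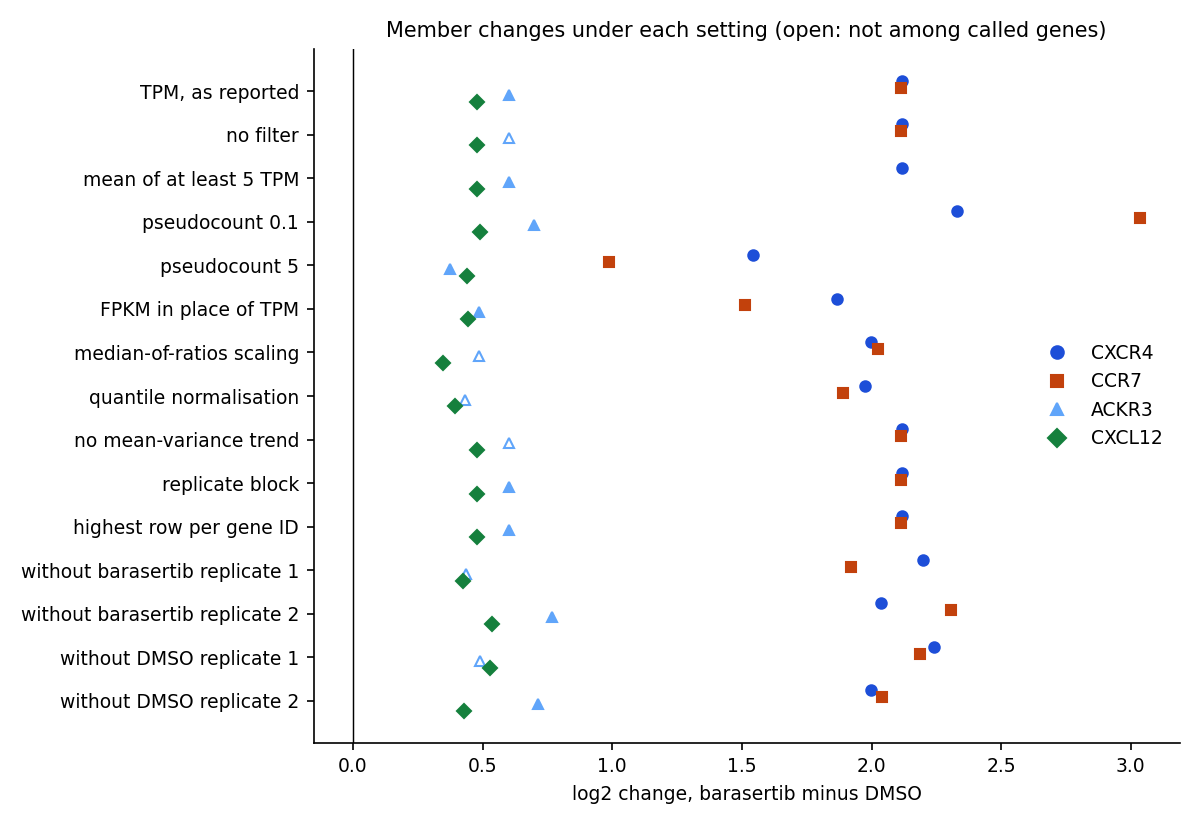
Log2 change of the 4 tested members (horizontal axis) under each processing setting (rows). Filled symbols are among the called genes of that setting and open symbols are not. CXCR4 runs from 1.54 to 2.33, CCR7 from 0.99 to 3.04, ACKR3 from 0.37 to 0.77 and CXCL12 from 0.35 to 0.54.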

How the data were processed

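RNA of NCC-IT-A3 cells, 2 libraries with barasertib and 2 with DMSO, was sequenced from TruSeq mRNA libraries, and the labels' protocols name both a standard and a stranded version of the kit. The submitters' processing notes name HISAT2, StringTie and hg19. Versions, options and use of strand: not given in the sources used here. The deposited files give TPM, which was used for the results, FPKM, used as an alternative, and coverage, the mean depth over a gene, per the file headers. The ratio of deposited coverage to FPKM, whose maximum over genes estimates the aligned bases, reached 4.22 to 4.59 Gb per library, and read numbers are unknown.

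Rows were summed per Entrez ID (336 to 407 IDs had more than 1 row in a library), and RefSeq gave symbols for 27559 of 27685 IDs. One listed gene, GPR182, was not matched. The test was limma 3.58.1 (R 4.3.3), applied to log2(TPM + 1) of the 13938 genes that averaged 1 TPM or more, with treatment as the single factor, a mean-variance trend, two-sided, and Benjamini-Hochberg adjustment over all tested genes at 0.05. The fit was tested on simulated data. Alternatives were: no filter, an average of 5 TPM or more, other pseudocounts (0.1 and 5), FPKM, median-of-ratios scaling, quantile normalisation, no trend, the replicate number as a block, the highest row per ID, and each library left out with the tested genes kept. Leaving out a library leaves 1 in its condition, which is then assumed to vary like the other condition, so a call lost there can reflect fewer libraries and not a smaller change.

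The members and gene lists were chosen with earlier results of these data known. Named genes are the members, up to 4 called genes per list with the largest change (or the gene with the smallest p), the nearest tested neighbours and the 3 nearest profiles of each receptor, and AURKB; some genes that the rule names are not reported here. Plots were drawn with matplotlib 3.10.9 in Python 3.11.15.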

Additional observations from a re-analysis of the deposited data

How the results depend on the processing

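CXCR4 and CXCL12 were higher and among the called genes in all 15 settings, and CCR7 in all 14 that tested it, since a mean of at least 5 TPM left it out. ACKR3 was higher in all 15 and among the called genes in 9. The members were chosen with this contrast known, so these calls describe them and test nothing. CCR7 also passed the 1 TPM minimum only through the barasertib libraries. The share of all tested genes that kept a call in every setting is not given here. Among all tested genes, 3071 were higher and 1037 lower in TPM, 1528 and 1891 after median-of-ratios scaling and 1649 and 1590 after quantile normalisation, and 674 were lower without the mean-variance trend. Leaving out each library gave 1324 to 2105 higher and 583 to 687 lower genes. The number of other chemokine receptors and ligands called higher, 1 in TPM, was 4 of 27 without the filter, 0 of 1 with a mean of at least 5 TPM, 0 of 1 with FPKM, 0 after quantile normalisation, 2 without the trend and 0 to 1 with a library left out. Of the G proteins, arrestins and RGS genes, 10 in TPM, 6 were higher after median-of-ratios scaling, 6 without the trend and 6 to 9 with a library left out. With the replicate number as a block 3218 genes were higher and 1080 lower, and the deviations of libraries with the same number correlated at 0.02. The labels do not say whether libraries with the same number shared a culture or day, and this correlation cannot decide it. Of 54 other named genes that were called, 32 kept the call in all settings and 0 turned in direction. The files give no read counts, so the counting error of values under 1 TPM cannot be computed, and the causes of these changes were not tested.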

Other observations

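Among 12 embryonal carcinoma markers, 6 rose and 2 fell in TPM, against 22.0% and 7.44% of all tested genes. After median-of-ratios scaling 3 rose and 3 fell, without the mean-variance trend 3 and 1, and without barasertib replicate 1 3 and 2. GDF3, a growth factor related to NODAL, rose from 70.2 ± 3.07 to 168 ± 3.65 TPM (limma adjusted p = 0.000226), and SOX2, a pluripotency factor named after its values were seen, fell from 450.7 ± 6.96 to 389.6 ± 11.8 TPM (0.0143). PODXL, also named after its values were seen, was at 505.9 and 166.6 TPM in barasertib replicates 1 and 2 and at 320.1 and 326.5 TPM in the DMSO libraries, so the spread within the treated libraries was wider than the difference between conditions. DPPA4 was at 90.4 and 188 TPM with DMSO and at 276.6 and 292.7 TPM with barasertib, and its call (limma adjusted p = 0.0390) was lost after median-of-ratios scaling (0.0654), after quantile normalisation (0.0602) and without barasertib replicate 1 (0.148) or 2 (0.165).

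Among 12 genes of germ cell migration 6 were tested. CDH1 (E-cadherin) fell from 20.3 ± 0.411 to 7.33 ± 0.372 TPM (limma adjusted p = 0.000465, called in all settings), and KITLG, the ligand of KIT, rose from 12.9 ± 0.524 to 17.3 ± 2.67 TPM (0.0479), a call lost after median-of-ratios scaling (0.141) and without barasertib replicate 2 (0.152), DMSO replicate 1 (0.134) or DMSO replicate 2 (0.0787). Of 4 fibroblast markers tested of 12 listed, 3 rose, and THY1 went from 7.49 ± 0.480 to 116 ± 6.75 TPM (limma adjusted p = 1.86e-05), while DCN, FAP and TWIST2 did not exceed 0.0465 TPM in any library. Of 12 endothelial markers, 2 were tested and 1 rose, SOX18 from 0.619 ± 0.151 to 3.63 ± 0.0806 TPM (limma adjusted p = 0.00228), which passed the 1 TPM minimum only through the barasertib libraries. Of 12 mesoderm markers 4 were tested and 2 rose, among them KDR, a VEGF receptor, from 11.3 ± 0.205 to 19.7 ± 0.0142 TPM (limma adjusted p = 0.00176). Among all tested genes 22.0% rose, and no marker list was tested against that share.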
